A study of Mus musculus with 8 samples.

Results

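The genes described here are Nrp1, Hip1, Lilrb4a, Entpd1 and Rgs16, 5 of the 33696 genes counted in each library. They were chosen by symbol because, in CD8 T cells from mouse ependymomas, their levels were higher in expanded T cell clones than in cells whose receptor was seen only once. The values that chose them came from the libraries labelled mavrilimumab 1 and mavrilimumab 2, so the levels by clone size in CD8 T cells are a description and were not tested. All 5 genes were found in every expression library, and all 5 passed the low-count filter of every test below.

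The tumors came from NestinCreERT2;Fus1;RFPTdT mice, in which a Cre driven by the Nestin promoter switches on the ZFTA-RELA fusion, the driver of a supratentorial ependymoma, together with a red fluorescent reporter. At 3 weeks of age the mice were randomised to a single intrathecal dose of mavrilimumab (5 mg per kg) or of a control antibody (vehicle IgG). Mavrilimumab blocks the GM-CSF receptor by binding its alpha subunit. Tumor-bearing brains were taken at a humane endpoint. The recorded age was 6 to 8 weeks in both groups, and the time from dose to endpoint was not compared between them. Cells were stained for CD45, carried by leukocytes, and for Ter119, carried by red cells, sorted, and profiled by droplet 5′ gene expression with paired T cell receptor (TCR) libraries. There were 2 expression libraries for vehicle IgG and 2 for mavrilimumab, the study pooled the tumors of several mice, and p-values below measure only the spread between these libraries.

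The libraries held 24354457 to 148657643 unique molecular identifiers (UMIs, counts of captured RNA molecules) and 984 to 26746 cells that passed the filters, with a median of 3296 to 11759 UMIs per cell. CD8 T cells (a Cd3e UMI and at least 2 UMIs of Cd8a and Cd8b1) numbered 70, 1773, 1967 and 1878 in the libraries vehicle IgG 1, vehicle IgG 2, mavrilimumab 1 and mavrilimumab 2. The labels of the receptor libraries stood apart from the cells. The receptor library labelled mavrilimumab 1 had 2491 of its 2749 barcodes among the cells of the expression library mavrilimumab 2, and that labelled mavrilimumab 2 had 4867 of 5659 among those of mavrilimumab 1, so receptors were joined by shared barcodes and are named here by the expression library. The receptor library vehicle IgG 1 joined the expression library of the same label with 182 of 193 barcodes, and the receptor library vehicle IgG 2 was not analysed here. In 3 of 3 receptor files a sample name stored inside the file gave the other treatment than the label, so every direction between treatments below rests on labels that these names contradict. Pairs of expression libraries shared 0 to 60 cell barcodes, and 8 receptor clones occurred in both the mavrilimumab 1 and the vehicle IgG 1 cells, none in the other pairs.

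T cells carry an alpha and a beta receptor chain made by gene rearrangement, and cells that share both chains at the nucleotide level descend from the same parent cell and form a clone. After repeated contact with antigen, CD8 T cells of a growing clone take on inhibitory receptors such as PD-1 (encoded by Pdcd1), and genes of naive and memory cells are low. The 5 genes have different roles on that background. Nrp1 encodes neuropilin-1, a surface receptor for semaphorins and VEGF that is also a known marker of thymus-derived regulatory T cells. Lilrb4a encodes an inhibitory receptor with intracellular motifs that recruit phosphatases, best known from myeloid cells. Entpd1 encodes CD39, the surface enzyme that breaks down extracellular ATP and is abundant on microglia. Hip1 encodes an adaptor that links clathrin-coated pits to actin, and Rgs16 encodes a GTPase-activating protein that shortens signals from G protein-coupled receptors, chemokine receptors among them.

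In RefSeq coordinates of the GRCm38.p6 assembly, Nrp1 lies at chr8:128358591-128505476, Hip1 at chr5:135406496-135545323, Lilrb4a at chr10:51490898-51496613, Entpd1 at chr19:40612366-40741602 and Rgs16 at chr1:153740353-153745468. The genes thus lie on 5 different chromosomes. Since the members were chosen for the same direction with clone size, the 300 bases around their RefSeq start sites were searched on both strands for the letters TGANTCA (AP-1), GGAAA (a core of NFAT sites) and TGTGGT (a core of RUNX sites). RefSeq gave 6 windows for Nrp1, Hip1, Entpd1 and Rgs16. TGANTCA was in 0 of the 6 windows against 7.81% of all 32851 promoters, TGTGGT in 1 (a start of Entpd1) against 16.8%, and GGAAA in 4 against 61.3%. The window of Nrp1, chr8:128358823-128359122 on the plus strand, is shown as an example with its GGAAA match in capitals. In this window 64.0% of the bases are G or C.
Nrp1: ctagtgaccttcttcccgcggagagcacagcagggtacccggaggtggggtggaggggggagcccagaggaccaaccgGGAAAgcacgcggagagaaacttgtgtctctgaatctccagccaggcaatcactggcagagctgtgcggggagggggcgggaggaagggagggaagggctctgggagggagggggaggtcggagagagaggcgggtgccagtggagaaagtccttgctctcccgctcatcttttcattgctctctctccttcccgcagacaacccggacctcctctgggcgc

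The first question was how the genes varied with clone size in CD8 T cells. Clones of 4 or more cells were called expanded. There were 662 CD8 T cells in 70 expanded clones in mavrilimumab 1 and 199 cells in 37 expanded clones in mavrilimumab 2, against 515 and 903 cells of single-cell clones. Vehicle IgG 1 held 47 CD8 T cells of single-cell clones and none of an expanded clone, so it gives a base level only. Levels are UMIs of the gene per 1000000 UMIs of the summed cells (CPM), and bracketed ranges are exact 95% Poisson intervals, which cover counting error only.

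Nrp1, the semaphorin receptor, was at 35.1 CPM (28.5 to 42.7) in single-cell clones, 64.5 CPM in clones of 2 to 3 cells and 101.8 CPM (90.7 to 114) in expanded clones of mavrilimumab 1. In mavrilimumab 2 the same 3 levels were 13.1 CPM (11.2 to 15.2), 20.2 CPM and 34.9 CPM (28.5 to 42.3), and the single-cell clones of vehicle IgG 1 were at 41.8 CPM. In both mavrilimumab libraries the level increased at each step of clone size, although expanded clones of mavrilimumab 2 stood no higher than single-cell clones of the other libraries. Hip1, the clathrin adaptor, was at 155, 242 and 365 CPM in mavrilimumab 1, and at 95.6, 204 and 228 CPM in mavrilimumab 2, against 72.8 CPM in vehicle IgG 1. Its expanded-clone level was therefore above the single-cell-clone level of every library.

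Lilrb4a, the inhibitory receptor, went from 80.7 to 90.6 and 122 CPM in mavrilimumab 1. In mavrilimumab 2 it went from 57.5 to 108.9 and 130.9 CPM, and it was at 32.3 CPM in vehicle IgG 1. Entpd1, encoding CD39, went from 57.2 to 80.2 and 110 CPM in mavrilimumab 1 and from 60.6 to 107.7 and 109 CPM in mavrilimumab 2, with 36.4 CPM in vehicle IgG 1. In mavrilimumab 2 most of the difference of Lilrb4a and Entpd1 was already present in clones of 2 to 3 cells. Rgs16, the regulator of G protein signals, was sparse, with 5.61, 10.5 and 31.6 CPM in mavrilimumab 1 and 3.07, 2.88 and 7.38 CPM in mavrilimumab 2. No Rgs16 UMI was seen in single-cell clones of vehicle IgG 1, for which 3 counts would be 4.04 CPM.

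As log2 ratios of expanded over single-cell clones, in mavrilimumab 1 and then 2, Nrp1 was at 1.51 and 1.35, Hip1 at 1.23 and 1.25 and Rgs16 at 2.30 and 1.04. Lilrb4a was at 0.59 and 1.17 and Entpd1 at 0.93 and 0.84. Thus Nrp1, Hip1 and Rgs16 were at least 2-fold higher in both libraries, as were 25 of 8464 genes measured (0.295%), whereas Lilrb4a passed that fold in mavrilimumab 2 alone and Entpd1 in neither. By mean log2 ratio Rgs16 ranked 25th, Nrp1 39th, Hip1 51st, Entpd1 106th and Lilrb4a 107th of the 8464 genes. These counts and ranks restate the contrast by which the genes were chosen. Lilrb4b, a near-identical neighbor of Lilrb4a, was at 36.1 and 66.9 CPM in single-cell and expanded clones of mavrilimumab 1 and at 26.7 and 68.1 CPM in those of mavrilimumab 2, and how reads were divided between the paralogs is uncertain.

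**Figure D1:**
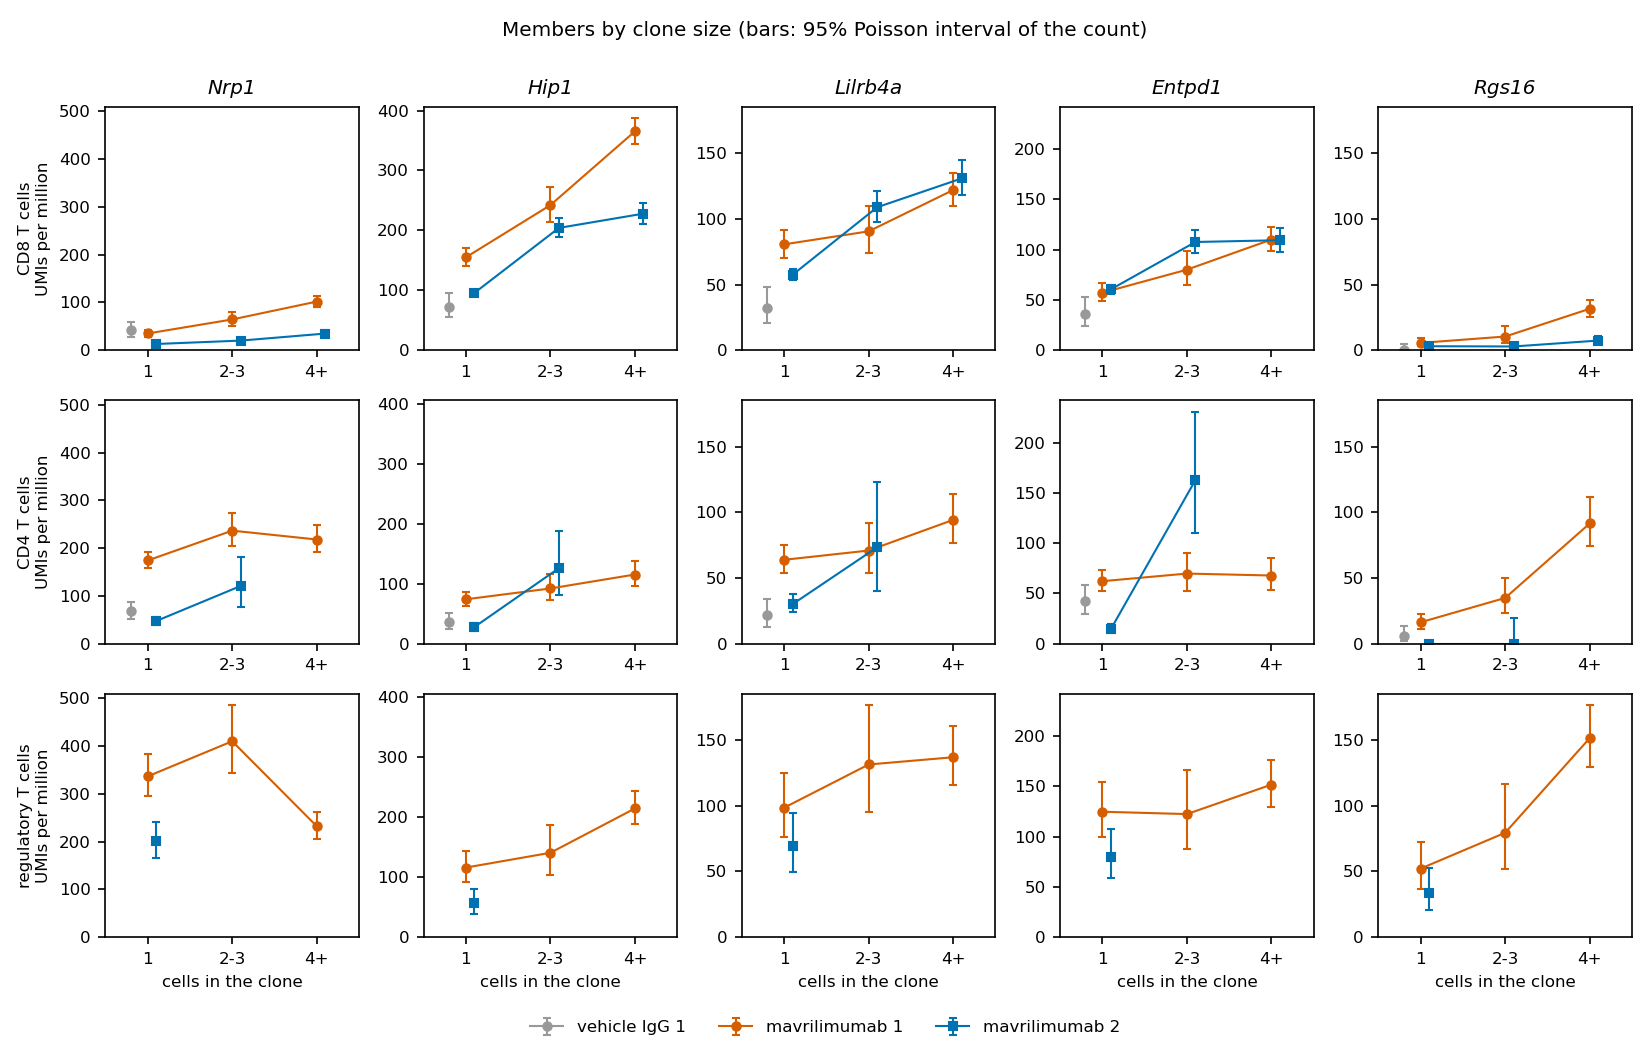
Level of each gene (vertical axis, CPM) by the number of cells in the clone (horizontal axis) in CD8, CD4 and regulatory T cells, with a line per library and 95% Poisson intervals as bars. In CD8 T cells all 5 genes were higher in clones of 4 or more cells than in single-cell clones of the same library, while Nrp1 in regulatory T cells went from 336 to 232.

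The share of cells with at least 1 UMI of a gene restates, in the same cells, the contrast by which the genes were chosen. In mavrilimumab 1 the share was 15% of single-clone and 29.3% of expanded-clone CD8 T cells for Nrp1, 41% and 66.6% for Hip1, 27.2% and 33.1% for Lilrb4a, 21.7% and 33.5% for Entpd1, and 1.55% and 9.21% for Rgs16. In mavrilimumab 2 it was 9.3% and 25.1% for Nrp1, 40.1% and 79.9% for Hip1, 29.7% and 67.8% for Lilrb4a, 35.4% and 66.3% for Entpd1, and 1.33% and 4.02% for Rgs16. The median depth was 5283 and 4114 UMIs in single and expanded clones of mavrilimumab 1, and 12160 and 14154 in those of mavrilimumab 2. With each cell thinned to 1000 UMIs, the shares of Nrp1, Hip1, Lilrb4a and Entpd1 were still higher in the expanded clones of both libraries, for example 3.55% and 9.35% for Nrp1 in mavrilimumab 1 and 1.2% and 3.74% in mavrilimumab 2. UMIs of at least 3 of the 5 genes were found together in 8.16% of single-clone and 24.8% of expanded-clone cells of mavrilimumab 1, and in 19.8% and 51.3% of those of mavrilimumab 2. Higher shares of the single genes raise this share as well, and detection together beyond them was not tested.

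B cells of the same libraries served as a type that should lack most of these RNAs, with a median of 15290 UMIs in mavrilimumab 1 and 5523 in mavrilimumab 2. Of the B cells of mavrilimumab 1, 33.1% had a UMI of Nrp1, 18% of Hip1, 4.07% of Lilrb4a and 0.581% of Rgs16. In mavrilimumab 2 the shares were 1.55%, 9.3%, 0.775% and 2.33%. Thinned to 1000 UMIs, B cells of mavrilimumab 1 had Nrp1 in 3.06%, next to 3.55% of single-clone and 9.35% of expanded-clone CD8 T cells. Entpd1 was present in 62.8% and 12.4% of B cells, which are known to carry CD39. For Rgs16 in mavrilimumab 2, the B cell share of 2.33% lay between the 1.33% and 4.02% of single and expanded clones, so its share there was not set apart from background. The deep B cells of mavrilimumab 1 had Rgs16 at 0.387 CPM and Lilrb4a at 2.71 CPM, both far below CD8 T cells.

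RNA outside cells was estimated from barcodes with 10 to 100 UMIs. There Nrp1 stood at 161 CPM in mavrilimumab 1 and 47.9 CPM in mavrilimumab 2, Hip1 at 137 and 183 CPM, Lilrb4a at 107 and 60.02 CPM, Entpd1 at 131 and 82.6 CPM and Rgs16 at 47.1 and 23.4 CPM. For Nrp1 and Rgs16 these are above the levels of single and of expanded CD8 clones in both libraries. For Hip1 in mavrilimumab 2, Lilrb4a in both and Entpd1 in mavrilimumab 2 they lie between the 2 levels, and for Entpd1 in mavrilimumab 1 above both. The part of free RNA in the levels was not tested. Of markers of other cells, the summed level of 12 microglia genes was lower in expanded than in single clones, at 948 and 797 CPM in mavrilimumab 1 and 1487 and 1247 CPM in mavrilimumab 2, with all 12 detected. The sum of 9 monocyte and macrophage genes went from 2171 to 1121 CPM in mavrilimumab 1 and from 826 to 1699 CPM in mavrilimumab 2. Most of it was Ly6c2, which CD8 T cells also carry, while Mrc1 and Cd163 were at 0 in the expanded clones of both libraries. The sum of 6 regulatory T cell markers was higher in expanded than in single clones, at 334 and 239 CPM in mavrilimumab 1 and 294 and 253 CPM in mavrilimumab 2, with all 6 detected in each, and the part of regulatory T cells in the CD8 gate was not tested.

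The expanded cells were unevenly spread over clones. The 3 largest clones held 33.7% of the expanded CD8 T cells of mavrilimumab 1 and 17.6% of those of mavrilimumab 2. The clones are named by library and rank of size, so that M1-1 is the largest of mavrilimumab 1. M1-1 used TRAV16 with TRAJ57 and TRBV12-2 with TRBJ1-1, M1-2 used TRBV3 with TRBJ1-3, M1-3 used TRBV19 with TRBJ1-4, M1-4 used TRBV31 with TRBJ1-2, M1-5 used TRBV5 with TRBJ2-5, M2-1 used TRBV3 with TRBJ2-3 and M2-2 used TRBV29 with TRBJ1-1. The nucleotide sequences of their beta-chain CDR3, the loop that meets the antigen and the barcode of the clone, are shown because they tell the clones apart.
M1-1: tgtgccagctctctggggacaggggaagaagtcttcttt
M1-2: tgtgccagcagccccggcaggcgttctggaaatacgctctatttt
M1-3: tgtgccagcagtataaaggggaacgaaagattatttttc
M1-4: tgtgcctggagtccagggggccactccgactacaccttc
M1-5: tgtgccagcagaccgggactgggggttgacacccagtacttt
M2-1: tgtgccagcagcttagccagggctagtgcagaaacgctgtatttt
M2-2: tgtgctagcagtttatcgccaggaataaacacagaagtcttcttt

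In mavrilimumab 1, 5 clones had 20 or more CD8 T cells. Clone M1-1 had 151 CD8 T cells, 88.1% of them with a Pdcd1 UMI, and stood at 183 CPM for Nrp1, 684 CPM for Hip1, 180 CPM for Lilrb4a, 200 CPM for Entpd1 and 97.7 CPM for Rgs16. It was the highest of the 16 clones with 10 or more CD8 T cells in that library for Hip1, Entpd1 and Rgs16. M1-2, with 44 cells and Pdcd1 in 47.7% of them, was lower for every gene, with Nrp1 at 52.1 CPM, Hip1 at 403 CPM, Lilrb4a at 109 CPM, Entpd1 at 123 CPM and no Rgs16 UMI. M1-3, with 28 cells and Pdcd1 in 50.0%, had Nrp1 at 83.5 CPM, Hip1 at 313 CPM, Entpd1 at 83.5 CPM, Rgs16 at 20.9 CPM on 2 UMIs, and Lilrb4a at 41.7 CPM, below the 80.7 CPM of single-cell clones. M1-4, with 25 cells and Pdcd1 in 84.0%, carried all 5 genes, with Nrp1 at 96.9 CPM, Hip1 at 429 CPM, Lilrb4a at 194 CPM, Entpd1 at 132 CPM and Rgs16 at 62.3 CPM. M1-5, with 20 cells and Pdcd1 in 70.0%, had Nrp1 at 150 CPM, Hip1 at 313 CPM, Entpd1 at 87.8 CPM, Lilrb4a at 62.7 CPM, again below single-cell clones, and no Rgs16 UMI. Nrp1, Hip1 and Entpd1 were thus above the single-clone level in all 5 of these clones, and Lilrb4a and Rgs16 in 3 each. M2-1 and M2-2, with 13 and 12 cells, had Nrp1 at 33.7 and 88.4 CPM and Hip1 at 191 and 324 CPM.

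Over the 16 clones with 10 or more CD8 T cells in mavrilimumab 1, 14 were above the single-cell-clone level for Hip1, 12 for Nrp1, 11 for Entpd1, 10 for Lilrb4a and 8 for Rgs16. Hip1 was thus high in nearly every large clone, from 38.2 to 684 CPM with a median of 333 CPM, whereas 8 of the 16 clones had no Rgs16 UMI. Of the 4 such clones in mavrilimumab 2, all 4 were above the single-cell level for Nrp1, Hip1 and Lilrb4a, 3 for Entpd1 and 1 for Rgs16. Small clones give few UMIs, so a clone at 0 is not shown to lack the RNA. Without the 3 largest clones, the log2 ratios in mavrilimumab 1 were 1.21 for Nrp1, 0.76 for Hip1, 0.43 for Lilrb4a, 0.51 for Entpd1 and 1.24 for Rgs16, so those of Hip1, Entpd1 and Rgs16 rested in part on them. In mavrilimumab 2 they were 1.28, 1.24, 1.09, 0.89 and 1.21, and leaving out the clones also found in vehicle IgG 1 (16 expanded cells) gave 1.51 for Nrp1 and 2.33 for Rgs16 in mavrilimumab 1.

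**Figure D2:**
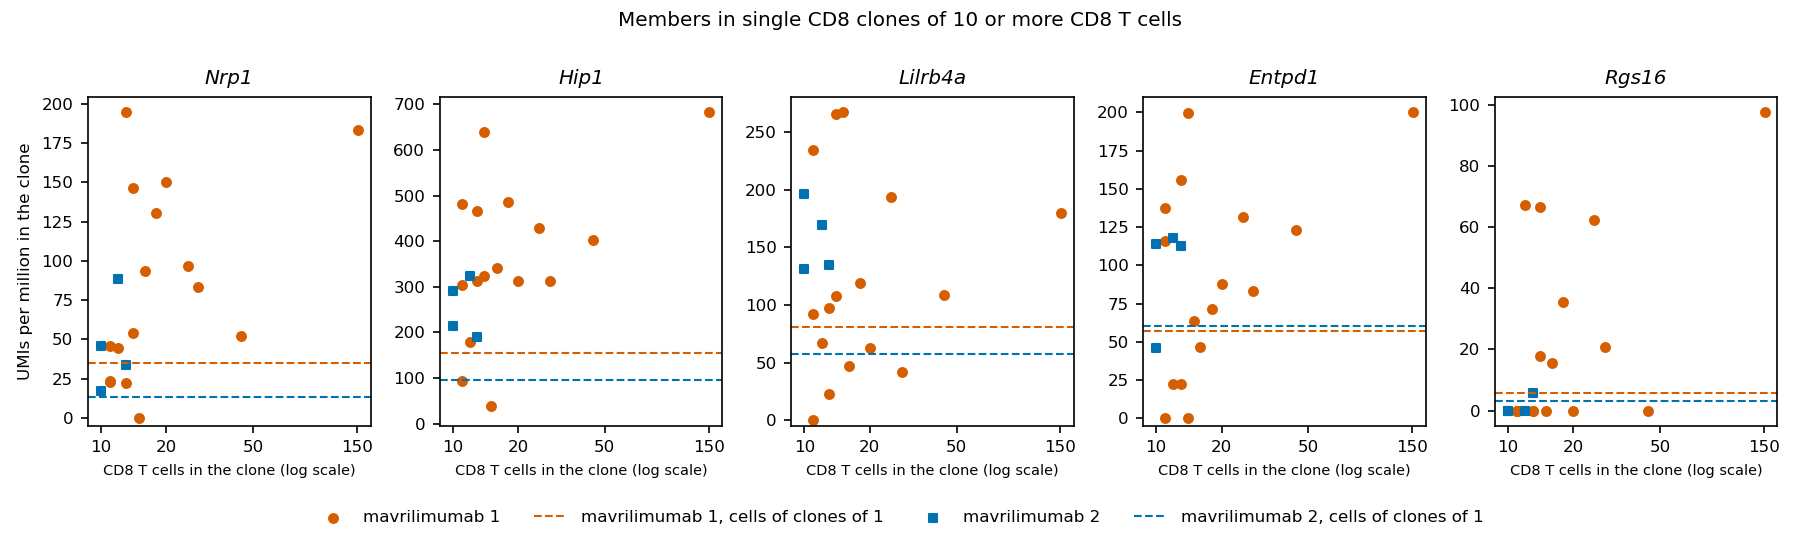
Level of each gene in every clone with 10 or more CD8 T cells (vertical axis, CPM) against the number of CD8 T cells in the clone (horizontal axis, log scale), with dashed lines at the level of single-cell clones of the same library. For Hip1, 14 of 16 clones of mavrilimumab 1 and 4 of 4 of mavrilimumab 2 lie above their line, while 8 of 16 and 3 of 4 clones are at 0 for Rgs16.

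Other genes of the same pathways were followed in the same cells. None of the 4 genes of neuropilin signaling (ligands and co-receptors), 13 of clathrin endocytosis, 5 of the LILR family with its ligands and phosphatases, 11 of purine metabolism and sensing, and 6 other RGS genes that passed the level filter was 2-fold higher or lower in expanded clones of both libraries, next to 25 higher and 39 lower of the 8464 genes. The log2 ratios in mavrilimumab 1 and 2 were 0.87 and 1.32 for Lilrb4b and 0.93 and 0.75 for Hip1r, the paralogs of Lilrb4a and Hip1. Of the relatives of Entpd1, Entpd5 was at -0.29 and 0.19 and Entpd6 at -0.09 and -0.12, and Nt5e, whose product CD73 acts after CD39, was at -0.78 and -0.13. Cd38, an enzyme that consumes NAD, was at 1.04 and 0.56. The RGS family ran both ways, from Rgs3 at 0.69 and 0.44 and Rgs1 at 0.44 and 0.86 to Rgs10 at -1.45 and -0.51. Of 18 activation and exhaustion genes, 4 were at least 2-fold higher in both libraries, namely Pdcd1 (2.33 and 1.96), Lag3 (2.12 and 1.08), Havcr2 (3.64 and 1.13) and Prdm1 (1.69 and 1.57), the first 3 inhibitory receptors and the last a transcription factor of effector cells. Of 10 naive and memory genes, 6 were at least 2-fold lower, among them the homing receptor gene Ccr7 (-2.69 and -4.35). Of 12 cytotoxic genes Gzmk alone was 2-fold higher in both (1.22 and 2.11).

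In CD4 T cells without a Foxp3 UMI, only mavrilimumab 1 had enough cells of expanded clones (293 cells in 67 clones, against 532 single-clone cells), with 1 such cell in mavrilimumab 2, so these are values of 1 library with a counting interval of the ratio. Rgs16 stood out, with 16.3 CPM in single-cell clones, 34.9 CPM in clones of 2 to 3 cells and 91.6 CPM in expanded clones, a ratio of 5.62 (3.82 to 8.43), and ranked 15th of 8694 genes. Of the 5 genes it alone was at least 2-fold higher over all these cells, as were 206 of the 8694 genes (2.37%). This did not hold among the cells with fewer than 2 myeloid UMIs described next. Nrp1 went from 174 to 218 CPM (ratio 1.25, 1.06 to 1.47), Hip1 from 74.0 to 115 CPM (1.56, 1.23 to 1.98) and Lilrb4a from 63.9 to 94.3 CPM (1.48, 1.14 to 1.91). Entpd1 was at 62.1 and 67.8 CPM, within counting error (1.09, 0.812 to 1.46), over all these cells.

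The same expanded CD4 T cells had 1617 CPM of 6 regulatory T cell markers, against 714 CPM in single clones, with Foxp3 at 0 by the gate and the other 5 detected in both. Nrp1 was not on that list, and the part of regulatory T cells whose Foxp3 was missed was not tested. The second largest CD4 clone, with Rgs16 at 246 CPM, also had 15 cells in the regulatory T cell gate. Without the 3 largest CD4 clones the log2 ratio of Rgs16 was 1.92 in place of 2.42. Among the cells with fewer than 2 UMIs of 8 myeloid genes (171 single-clone and 103 expanded-clone cells) it was 0.45, from 39.2 to 54.0 CPM, with an interval of the ratio (0.679 to 2.72) that takes in no difference. Entpd1 was the member at least 2-fold higher among those cells, from 40.9 to 94.5 CPM (ratio 2.31, 1.29 to 4.16). A limit on a count of UMIs also depends on the depth of a cell. It kept 486 of the 1453 CD4 T cells of mavrilimumab 1, where a limit of 1% of the UMIs of a cell kept 1441. The microglia marker sum was 1114 CPM in single and 1537 CPM in expanded clones, with 12 of 12 genes detected in both. A test was possible for clones of 2 or more against 1 cell, in mavrilimumab 1 and 2, where edgeR called 3 of 10330 genes (0.029%) and 0 of the 5. Rgs16 was at a log2 fold change of 2.01 (SE 0.54, adjusted p = 0.807), Hip1 at 1.15 (SE 0.37, adjusted p = 0.957) and Entpd1 at 1.33 (SE 0.59, adjusted p = 1.00). The libraries differed in this comparison. In mavrilimumab 2, with 278 and 21 cells, Entpd1 went from 14.5 to 155 CPM (ratio 10.7, 6.48 to 17.7), Hip1 from 27.8 to 146 CPM (5.25, 3.31 to 8.15), Lilrb4a from 30.1 to 77.7 CPM (2.58, 1.41 to 4.46) and Nrp1 from 47.3 to 112 CPM (2.36, 1.44 to 3.71), and no Rgs16 UMI was seen in either set. In mavrilimumab 1 Rgs16 went from 16.3 to 67.5 CPM, while Entpd1 was at 62.1 and 68.6 CPM. Rgs16 thus stood out in mavrilimumab 1 and Entpd1 in mavrilimumab 2. Both CD8 markers, Cd8a and Cd8b1, moved with this comparison, at a median log2 fold change of 1.85 with 0 of 2 called. Their sum in mavrilimumab 2 was 16.8 CPM in single-clone CD4 T cells and 64.2 CPM over all its CD4 T cells, and CD8 T cells there held 145 CPM of Hip1 and 80.6 CPM of Entpd1. The part of CD8 T cells in the CD4 gate was not tested.

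In regulatory T cells, defined by a Foxp3 UMI, mavrilimumab 1 held 271 cells of expanded and 161 of single-cell clones, and mavrilimumab 2 again held 1 cell of an expanded clone. Here Nrp1 went the other way, with 336 CPM (294 to 382) in single-cell clones, 410 CPM in clones of 2 to 3 cells and 232 CPM (204 to 262) in expanded clones, a ratio of 0.69 (0.575 to 0.828). Rgs16 went from 52.2 to 79.5 and 152 CPM (ratio 2.91, 2.02 to 4.29) and was the only one of the 5 at least 2-fold higher, as were 353 of 8740 genes (4.04%). Hip1 went from 116 to 215 CPM (1.85, 1.43 to 2.42) and Lilrb4a from 98.6 to 137 CPM (1.39, 1.04 to 1.88). Entpd1 was at 125 and 152 CPM, within counting error (1.22, 0.932 to 1.60).

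Microglia markers moved with these cells, at 749 CPM (10 of 12 genes detected, Sall1 and Sparc at 0) in single-cell clones and 1513 CPM (12 of 12) in expanded clones. Of 11 such markers that passed the level filter 9 were at least 2-fold higher in expanded clones (median log2 ratio 2.57), next to 353 of the 8740 genes. Among cells with fewer than 2 myeloid UMIs, 67 and 110 in number, the log2 ratio was -0.13 for Nrp1 in place of -0.53 (ratio 0.913, 0.671 to 1.25, within counting error), 1.26 for Hip1 in place of 0.88, and 1.47 for Rgs16 in place of 1.52. In the test of clones of 2 or more against 1 cell, with mavrilimumab 1 and 2, 23 of 7729 genes (0.298%) and 0 of the 5 were called, and Nrp1 had a log2 fold change of -0.70 (SE 0.34, adjusted p = 1.00). In mavrilimumab 2, where the test rested on 10 cells of clones of 2 or more, Nrp1 went from 201 to 55.7 CPM (ratio 0.277, 0.0743 to 0.73), lower as in the expanded clones of mavrilimumab 1. Of these 10 cells 9 were in clones of 2 to 3, a size at which Nrp1 in mavrilimumab 1 was above single-cell clones. In mavrilimumab 2 Rgs16 went from 33.8 CPM to 0 UMIs, with an upper limit of the ratio of 1.68. Lilrb4a was at 69.3 and 41.8 CPM (0.603, 0.119 to 1.90), so that neither repeated the direction of mavrilimumab 1. Of the cytotoxic list 4 of 11 genes tested rose, among them Xcl1 (log2 4.75, SE 0.83, adjusted p = 0.00132) and Nkg7 (3.00, SE 0.42, adjusted p = 1.58e-05), and Klf2, a transcription factor of resting T cells, fell by 1.58 on the log2 scale. The CD8 marker Cd8a rose as well (3.27, SE 0.61, adjusted p = 0.00287), and the sum of both CD8 markers in mavrilimumab 1 was 82.6 CPM in single-cell and 149.8 CPM in expanded clones. The part of CD8 T cells in the regulatory T cell gate was not tested.

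A Pdcd1 UMI offered a split of CD8 T cells that did not use receptors. CD8 T cells with a Pdcd1 UMI were compared with those without in vehicle IgG 2, mavrilimumab 1 and mavrilimumab 2 (301, 709 and 523 cells with Pdcd1), paired within library. In vehicle IgG 1, vehicle IgG 2, mavrilimumab 1 and mavrilimumab 2, 110 of 588, 54 of 651, 35 of 237 and 201 of 806 microglia also had a Pdcd1 UMI. Of 12 microglia markers 6 were at a positive log2 fold change in this split (median 0.03). The part of microglial or free RNA in the split was not tested. The mavrilimumab cells overlap those by which the genes were chosen, and Pdcd1 was itself higher in their expanded clones, so the fold changes of the 5 genes here are a description with no test. The independent values are those of vehicle IgG 2, which was analysed without receptors. Its CD8 T cells with and without Pdcd1 held 1684 and 1766 CPM of 9 neural and tumor markers. The same sums were 1.81 and 5.72 CPM in mavrilimumab 1, and 45.8 and 28.1 CPM in mavrilimumab 2. Of 11853 genes 55 were called (0.464%). Nrp1 had a log2 fold change of 1.20 (SE 0.14). Nrp1 was at 58.5 CPM (45.1 to 74.5) with and 31.3 CPM (26.6 to 36.5) without Pdcd1 in vehicle IgG 2, 116.6 and 54.4 CPM in mavrilimumab 1, and 35.5 and 11.8 CPM in mavrilimumab 2, higher in 3 of 3 libraries. Markers of regulatory T cells moved with the split, with 6 of 6 at a positive log2 fold change (median 0.95) and Tnfrsf18 called (0.60, SE 0.08, adjusted p = 0.0497). Their sum with and without Pdcd1 was 374 and 225 CPM in vehicle IgG 2, 515 and 258 CPM in mavrilimumab 1, and 332 and 240 CPM in mavrilimumab 2, and the part of such cells was not tested.

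Entpd1 had a log2 fold change of 0.64 (SE 0.09), with 91.8 and 49.2 CPM in vehicle IgG 2, 107.5 and 66.8 CPM in mavrilimumab 1, and 102.5 and 70.9 CPM in mavrilimumab 2. Hip1 (0.72, SE 0.13) was at 233 and 193 CPM in vehicle IgG 2, 342 and 181 CPM in mavrilimumab 1, and 220 and 112 CPM in mavrilimumab 2. Lilrb4a (0.58, SE 0.13) was at 96.3 and 56.7, 103 and 86.6, and 116 and 65.4 CPM in the same order. All 4 of these genes were higher with Pdcd1 in every one of the 3 libraries. Free RNA in vehicle IgG 2 held Hip1 at 293 CPM, above both of its levels, and Nrp1 at 38.0 CPM, between them. Entpd1 at 16.3 CPM and Lilrb4a at 2.71 CPM in that free RNA were below both of their levels. Rgs16 (2.15, SE 0.55) was higher in mavrilimumab 1 (33.8 and 3.34 CPM) and mavrilimumab 2 (9.33 and 1.36 CPM), but at 15.3 CPM (8.91 to 24.5) and 13.0 CPM (10.0 to 16.5) in vehicle IgG 2 its counting intervals overlapped, and free RNA there held 48.8 CPM of it. That estimate of free RNA rests on 6703 barcodes, against 113600 to 135305 in the other libraries.

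Vehicle IgG 1, left out of that fit for its 16 cells with Pdcd1, gave 116 CPM (75.9 to 170) and 32.5 CPM for Nrp1, 268 and 55.1 CPM for Hip1, 116 and 28.8 CPM for Entpd1, and 35.8 and 26.3 CPM for Lilrb4a, with no Rgs16 UMI in either set. Thus both vehicle IgG libraries had more Nrp1 and Entpd1 in cells with Pdcd1, although only vehicle IgG 2 entered the fit. Free RNA in vehicle IgG 1 held Nrp1 at 259 CPM and Entpd1 at 471 CPM, above the levels with and without Pdcd1. Hip1 there was at 40.3 CPM, below both levels, and Lilrb4a at 28.2 CPM, between them. The part of free RNA in these levels was not tested. Vehicle IgG 2 played no part in choosing the genes. Vehicle IgG 1 has receptor data, but no expanded CD8 clone. Of the fixed lists, 2 of 22 activation and exhaustion genes rose with Pdcd1 (Pdcd1, which defines the split, and Lag3 at 1.91), 3 of 10 naive and memory genes fell (Satb1 by 1.84, Klf2 by 1.47 and S1pr1 by 1.27), and 1 of 13 cytotoxic genes rose (Ccl4, 1.40). None of the genes of neuropilin signaling, clathrin endocytosis, the LILR family, purines and the other RGS genes was called, of 10, 13, 6, 14 and 10 tested.

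The genes were next placed among the cell classes, with CD8 T cells, CD4 T cells, regulatory T cells and microglia summed per library and fitted together with a term for library. The CD8 sums of the mavrilimumab libraries include the expanded-clone cells by which the genes were chosen. Nrp1 was lowest in CD8 T cells, at 50.8, 36.2, 78.1 and 19.1 CPM in vehicle IgG 1, vehicle IgG 2, mavrilimumab 1 and mavrilimumab 2 (46.0 ± 25.0 CPM, SD, n = 4). It was at 96.6 ± 67.6 CPM (SD, n = 4) in CD4 T cells, 209 ± 84.3 CPM (SD, n = 3) in regulatory T cells and 217 ± 99.5 CPM (SD, n = 4) in microglia. Regulatory T cells, at 167, 306 and 155 CPM in the last 3 libraries, were above CD8 T cells in each of them. The difference of CD8 from regulatory T cells passed the test at -2.12 (log2, SE 0.36, adjusted p = 0.0098), among 509 of 14107 genes called (3.61%), and that from microglia at -2.29 (SE 0.32, adjusted p = 8.67e-05), among 7581 (53.7%). CD4 T cells, the next in this order, were at 70.8, 63.9, 198 and 54.3 CPM and above CD8 T cells in 4 of 4 libraries, but the difference did not pass the adjusted test (-0.94, SE 0.32, adjusted p = 0.212). Without mavrilimumab 1, without mavrilimumab 2 or without the library term, the call against regulatory T cells was lost (adjusted p = 0.135, 0.252 and 0.204), with log2 fold changes of -2.23, -1.95 and -2.09. Without cells with 2 or more myeloid UMIs only mavrilimumab 1 kept at least 20 regulatory T cells, and the log2 fold change was -2.05.

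Entpd1 was a microglial RNA in these data, at 702, 135, 437 and 370 CPM in microglia of vehicle IgG 1, vehicle IgG 2, mavrilimumab 1 and mavrilimumab 2, against 47.9, 56.8, 82.3 and 80.6 CPM in CD8 T cells (log2 -2.36, SE 0.37, adjusted p = 0.00021). It was at 94.2 ± 35.3 CPM (SD, n = 3) in regulatory and 37.1 ± 22.6 CPM (SD, n = 4) in CD4 T cells, and neither difference from CD8 T cells passed the test (adjusted p = 0.909 and 0.212), although CD8 T cells were above CD4 T cells in 4 of 4 libraries (1.13, SE 0.38). Hip1 was higher in CD8 T cells than in microglia, by 1.32 (SE 0.36, adjusted p = 0.00829), with 102, 199.9, 242 and 145 CPM against 18.6, 257, 73.6 and 46.8 CPM. Vehicle IgG 2 went against this direction. In that library Hip1 stood at 265 CPM in B cells and 293 CPM in barcodes with 10 to 100 UMIs, so that its cell classes were not set apart from free RNA. Only 6703 such barcodes were found there, against 113600 to 135305 in the other libraries. The microglia markers summed to 14735 CPM in its microglia gate against 40273 to 42109 CPM in the others. Without vehicle IgG 2 the call of Hip1 remained (1.88), but it was lost without mavrilimumab 1 (adjusted p = 0.0586), without mavrilimumab 2 (0.0764) and without the library term (0.306). It was also lost without T cells with 2 or more myeloid UMIs (0.0641). That filter left 10 of 15 sums and 0 CD8 T cells of vehicle IgG 1, so libraries were lost along with cells.

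Of 189 genes that differed between CD8 and CD4 T cells (1.34%), 0 were members, with the nearest at 1.38 for Hip1 (SE 0.36, adjusted p = 0.102) and 1.13 for Lilrb4a (SE 0.32, adjusted p = 0.136). DESeq2 called both, among 708 genes (5.02%), and edgeR at an unadjusted p under 0.05 gave Nrp1, Hip1, Lilrb4a and Entpd1, among 1773 (12.6%). Lilrb4a was at 66.5 ± 28.1 CPM (SD, n = 4) in CD8 T cells, 71.4 ± 55.5 CPM (SD, n = 3) in regulatory T cells, 42.6 ± 17.1 CPM (SD, n = 4) in microglia and 32.7 ± 24.7 CPM (SD, n = 4) in CD4 T cells. The difference of CD8 T cells from each of the others did not pass the test, although its paralog Lilrb4b was higher in CD8 T cells than in microglia (2.33, SE 0.34, adjusted p = 0.000143). Rgs16 was highest in regulatory T cells, at 98.1, 105 and 28.2 CPM in vehicle IgG 2, mavrilimumab 1 and mavrilimumab 2, against 13.4, 14.9 and 3.81 CPM in their CD8 T cells (-2.72, SE 0.88, adjusted p = 0.125).

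**Figure D3:**
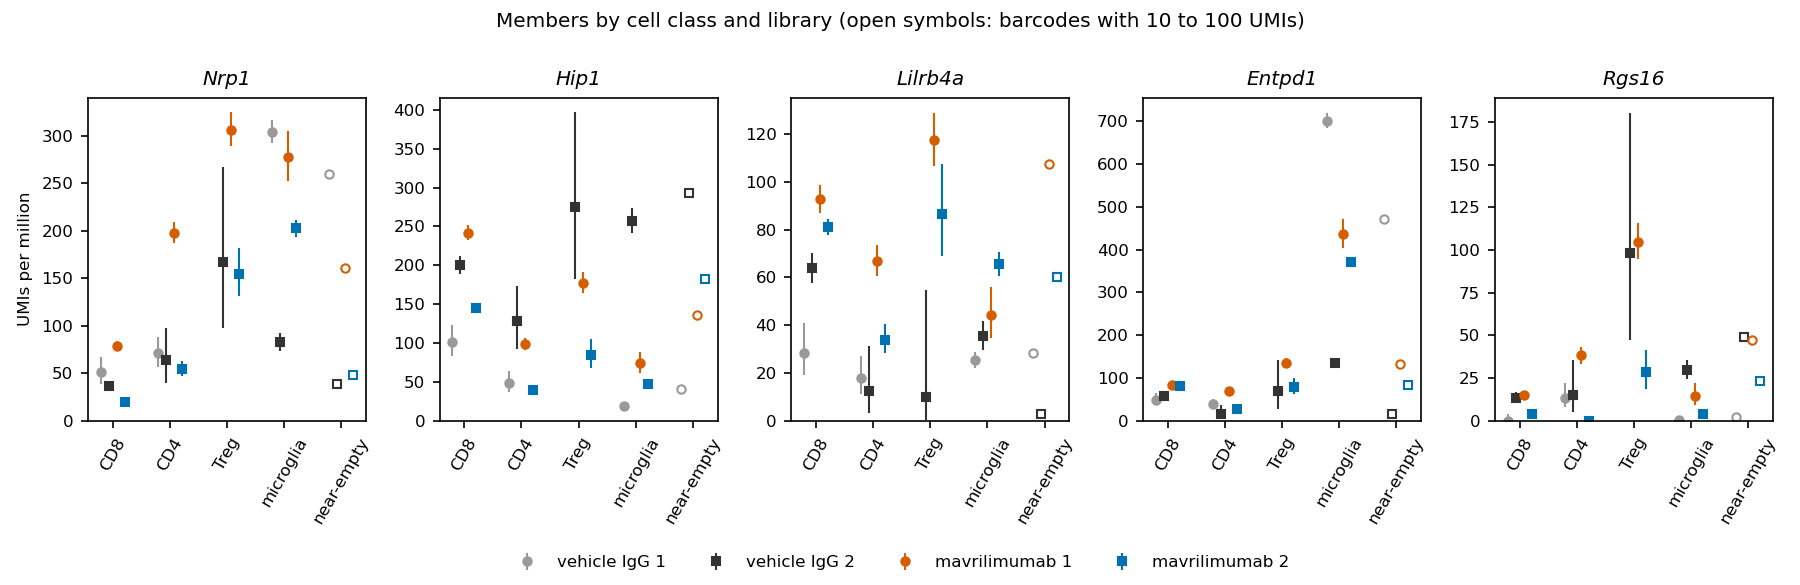
Level of each gene (vertical axis, CPM) by cell class and library, with 95% Poisson intervals as bars and open symbols for barcodes with 10 to 100 UMIs. Entpd1 is highest in microglia in every library, and Nrp1 is lower in CD8 T cells than in regulatory T cells in the 3 libraries with both.

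Among genes of the same pathways, Sema4a, a semaphorin of activated lymphocytes, was higher in CD8 T cells than in CD4 T cells (1.45, SE 0.22), regulatory T cells (2.87, SE 0.30) and microglia (3.23, SE 0.23), with adjusted p of 0.00828, 0.00104 and 1.32e-06. Of 17 genes of neuropilin signaling tested, 13 fell and 1 rose in CD8 T cells against microglia, Plxna4 (-6.18) and Nrp2 (-4.40) among them. Of 14 clathrin genes 7 fell, among them Cltc (-1.58), and Hip1r alone rose (2.49, SE 0.37, adjusted p = 0.000159), as Hip1 did. Of 15 purine genes 8 rose, among them the adenosine receptor gene Adora2a (3.37) and Nt5e (2.49), and 5 fell, among them Adora3 (-5.58). Of 8 genes of the LILR list 5 fell and Lilrb4b alone rose, and of 14 RGS genes 3 rose and 3 fell. These counts are to be read beside the 53.7% of all genes called in that comparison.

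The last comparison was that of the treatments, as labelled. In CD8 T cells the mavrilimumab sums hold the 662 and 199 expanded-clone cells by which the genes were chosen, and vehicle IgG 1 holds 0. The CD8 values of the 5 genes are thus not independent of that choice. In CD8 T cells Entpd1 was at 47.9 and 56.8 CPM in the vehicle IgG libraries and 82.3 and 80.6 CPM in the mavrilimumab libraries, and Lilrb4a at 28.4 and 63.8 against 92.7 and 81.1 CPM. Neither gene passed the test, with log2 fold changes of 0.68 for Entpd1 (SE 0.20) and 0.91 for Lilrb4a (SE 0.42) and an adjusted p = 0.926 for each. edgeR called 0 of 12410 genes (0.0%), with 524 at an unadjusted p under 0.05 and 129 called by DESeq2, none of them a member. Nrp1 (0.21, SE 0.69), Hip1 (0.38, SE 0.43) and Rgs16 (0.29, SE 1.36) did not pass the edgeR test either. Of the markers of other cells, 0 of 6 neural and tumor markers tested were at a positive log2 fold change (median -4.58) and 5 of 5 monocyte and macrophage markers were (median 1.16), with 5 of 12 microglia markers (median -0.14), and none of them was called. In vehicle IgG 1, vehicle IgG 2, mavrilimumab 1 and mavrilimumab 2 the 9 neural and tumor markers summed to 6.84, 1751, 4.23 and 33.5 CPM in CD8 T cells and the 9 monocyte and macrophage markers to 1047, 694, 1688 and 1029 CPM. In the same order the 6 regulatory T cell markers summed to 180, 252, 356 and 269 CPM and the 4 natural killer cell markers to 137, 172, 231 and 260 CPM. The part of such cells or their free RNA in the levels of the 5 genes was not tested.

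In CD4 T cells 0 of 10659 genes were called (0.0%, with 324 at an unadjusted p under 0.05 and 18 by DESeq2). Lilrb4a was at 17.7 and 12.2 CPM with vehicle IgG and 67.0 and 33.9 CPM with mavrilimumab (1.75, SE 0.44, adjusted p = 1.00). Markers of other cells moved with this comparison, with 10 of 11 microglia markers tested at a positive log2 fold change (median 3.02), both CD8 markers positive (median 1.43) and 4 of 4 neural and tumor markers negative (median -3.84), none of them called. In vehicle IgG 1, vehicle IgG 2, mavrilimumab 1 and mavrilimumab 2 the 12 microglia markers summed to 2491, 526, 1195 and 1682 CPM, the 2 CD8 markers to 11.8, 51.7, 74.0 and 64.2 CPM, and the 9 neural and tumor markers to 8.42, 1777, 4.89 and 53.2 CPM. In regulatory T cells, of which vehicle IgG 1 had only 15 and was left out, 60 of 9734 genes were called (0.616%) and 0 of the 5, with Lilrb4a at 9.81 CPM in vehicle IgG 2 and 117 and 86.8 CPM with mavrilimumab (3.46, SE 0.73, adjusted p = 0.178). That lone control library was taken to have the same spread as the mavrilimumab libraries. Its value rests on 28 cells and has an interval of 0.248 to 54.6 CPM. In the same comparison 2 of 2 CD8 markers (median log2 fold change 7.40), 9 of 11 microglia markers (7.99) and 3 of 3 natural killer cell markers (8.20) were positive with 0 called, and 3 of 5 neural and tumor markers were called lower. The sum of the CD8 markers was 9.81 CPM in vehicle IgG 2 and 224 and 360 CPM with mavrilimumab, that of the microglia markers 412 against 1139 and 1713 CPM, and that of the neural and tumor markers 1579 against 7.18 and 27.2 CPM. In microglia 0 of 13601 genes were called (0.0%, with 235 at an unadjusted p under 0.05 and 52 by DESeq2). Lilrb4a was at 25.3 and 35.4 CPM with vehicle IgG and 44.4 and 65.5 CPM with mavrilimumab (0.92, SE 0.37, adjusted p = 1.00). In the same gate the sum of 5 T cell markers was 16.0 and 88.4 CPM with vehicle IgG and 297 and 214 CPM with mavrilimumab, and that of 9 neural and tumor markers was 16.1 and 5205 against 191 and 393 CPM. Of the markers tested, 8 of 8 of monocytes and macrophages (median log2 fold change 0.98), 5 of 6 dendritic (2.29) and 12 of 12 microglia markers (0.47) were positive. Of the neural and tumor markers 0 of 9 were (-3.33), and none of these markers was called. The part of other cells in these levels was not tested. Without vehicle IgG 1 the microglia test called Nrp1 (1.73), Hip1 (-1.95) and Entpd1 (1.77), among 4587 of 14413 genes (31.8%), in a comparison that then rested on vehicle IgG 2, whose microglia gate stood apart and whose spread was taken to be that of the mavrilimumab libraries.

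**Figure D4:**
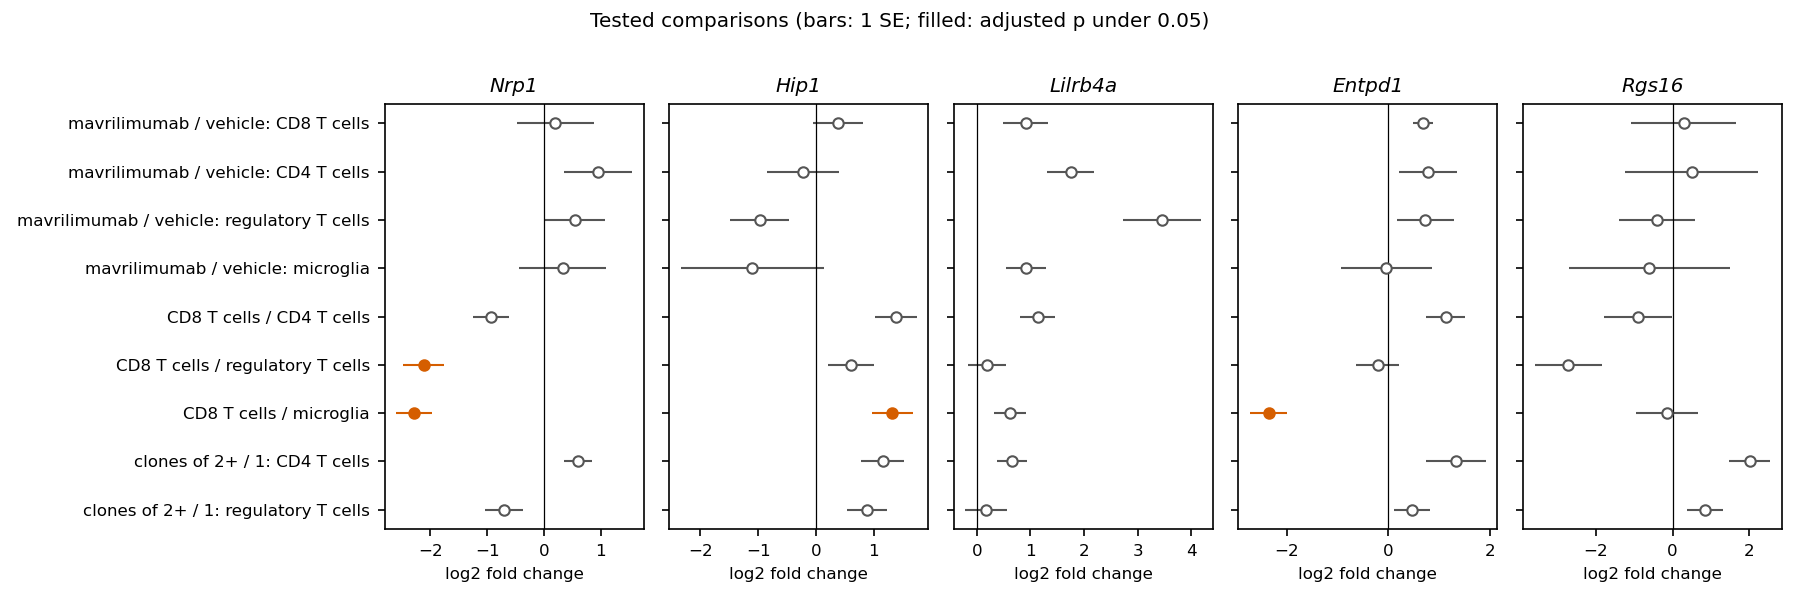
Log2 fold change (horizontal axis) of each gene in 9 comparisons, with 1 standard error as bars and filled symbols where the adjusted p was under 0.05. The clone contrast in CD8 T cells and the split by Pdcd1 are left out. The CD8 sums of the mavrilimumab libraries still include cells by which the genes were chosen, so comparisons with CD8 T cells are not independent of that choice. Nrp1 was called in CD8 against regulatory T cells, among 509 of 14107 genes (3.61%). Nrp1, Hip1 and Entpd1 were called in CD8 T cells against microglia, among 7581 (53.7%), and Lilrb4a and Rgs16 in no comparison.

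Over 24 sums of cells by class, clone size and library, the genes whose levels followed the mean of the 5 most closely were Rnh1 (r = 0.83), Lamtor4 (0.82), AU020206 (0.82), Ap1s1 (0.80), Myo1c (0.79), Vamp8 (0.79), Far1 (0.78) and Ube2l3 (0.78). The sums share libraries and the clone-size sums share a library's free RNA, so these Pearson correlations are a description. For single members the closest gene was Pou2f2 for Nrp1 (0.91), Setbp1 for Hip1 (0.88), Rtp4 for Lilrb4a (0.91), Ptprj for Entpd1 (0.97) and Lxn for Rgs16 (0.87). Between the members themselves the correlation ran from -0.21 for Nrp1 with Hip1 to 0.52 for Hip1 with Rgs16.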

How the data were processed

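Droplet 5′ expression libraries and TCR libraries of sorted tumor cells were used. The authors deposited unfiltered matrices of raw UMI counts per gene and barcode (33696 genes, Cell Ranger 9.0.1 per the file headers, while the submitters' processing notes name Cell Ranger 7 and 7.1.0, Scanpy 1.8.2 and mm10), and assembled receptor contigs per barcode, whose UMI counts were likewise deposited by the authors. Barcodes were kept as cells from 1000 UMIs upwards if they had 200 to 6000 genes and no more than 10% of UMIs from mitochondrial genes. Cells were gated on UMIs of Cd3e, Cd8a and Cd8b1, Cd4, Foxp3, and P2ry12 and Tmem119 (microglia, at least 2). A gate is no doublet caller, none was run, and a cell could pass more than 1 gate. Clones shared both CDR3 nucleotide sequences and their V and J genes within a receptor library.

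Counts were summed per library and class (at least 20 cells, 10 for clone sizes) and tested in edgeR 4.0.16 by quasi-likelihood (R 4.3.3, limma 3.58.1) after TMM and filterByExpr, with Benjamini-Hochberg adjustment over all genes at 0.05. An SE is the size of the log2 fold change over the square root of F. Log2 ratios of levels used 1 CPM as a prior, and ratios given with a counting interval used none. Ranks and counts of genes by clone size used genes with a mean of at least 10 CPM. Likeness used genes with a mean of at least 20 CPM. Checks on simulated counts covered treatment in CD8 T cells, CD8 against CD4 T cells and the split by Pdcd1. They used the same spread for every gene and no library effect beyond depth. The other tests, those by clone size among them, were not simulated. Python 3.11.15, pandas 2.3.3 and scipy 1.17.1 were used. DESeq2 1.42.0, other normalization and filters, other cell and clone definitions and leaving out libraries were alternatives.

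Members and gene lists were chosen with earlier results of these data known. By the rule for named genes, the text gives the 5 members, Lilrb4b, the 8 genes most like the members' mean with the 1 most like each member, and, per list and comparison, up to 3 of the genes past the threshold with the largest fold change and a mean of at least 20 CPM. Other genes named (Hip1r, Entpd5, Entpd6, Rgs1, Rgs3, Rgs10, Cd38, Nt5e and Prdm1 by clone size, and Cltc, Sema4a, Nt5e, Nrp2 and Adora2a by cell class among them) were chosen after their values were seen. The clone contrast of CD4 and regulatory T cells had 1 library with at least 10 cells in clones of 4 or more, so the planned test could not be fitted and clones of 2 or more were tested. Coordinates and promoter windows are RefSeq's (GRCm38.p6). Results that need an item withheld from this text are not reported here.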

Additional observations from a re-analysis of the deposited data

Results flagged for a closer look

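The log2 ratio of Nrp1 between expanded and single-cell clones was -0.53 in regulatory T cells of mavrilimumab 1, against 0.32 in CD4 T cells of the same library and 1.51 and 1.35 in CD8 T cells of mavrilimumab 1 and 2. It drew attention because the direction in regulatory T cells was opposite to that in CD8 and in CD4 T cells. Among regulatory T cells with fewer than 2 myeloid UMIs (67 and 110 cells) it was -0.13, a ratio of 0.913 (0.671 to 1.25), within counting error. The difference was not tested, since only 1 library had enough cells in expanded clones of regulatory T cells.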

How the results depend on the processing

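Depth, free RNA and the number of libraries limit these results. Of 112 values that answer a comparison 87 kept their side and 25 moved, and of 555 values of single genes 23 changed sign. For the members the Pdcd1 comparison is a description and no test, since its mavrilimumab cells overlap those by which the genes were chosen. The number of members past its threshold is given only to show how the fits differed, and no conclusion on the members is drawn from it. It was 1 in the fit reported and 5 with DESeq2 and without the low-count filter. With cells of 1 gate it was 2, and without cells with 2 or more myeloid UMIs it was 3. Without the library term it was 0, and it was 2 to 4 when a library was left out. In the same order of alternatives, from DESeq2 on, the genes called in that comparison were 474, 867, 89, 141, 0 and 144 to 223. Against CD4 T cells 2 members were called with DESeq2 (among 708 of 14107 genes) and without the filter (among 375 of 24692). When a library was left out 0 to 1 were called, among 1 to 367 genes. Against regulatory T cells 0 members were called without the library term (among 23 of 14107 genes), and 0 to 1 on leaving out a library (among 1 to 988 genes). Without the filter Lilrb4a alone (1 member) was called between treatments in CD4 T cells, among 336 of 19376 genes. The fit of regulatory T cells had 1 control library, and its calls without the filter are not counted here. In microglia 0 to 3 were called on leaving out a library, with 0 to 4587 genes.

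The median log2 ratio of the members between expanded and single CD8 clones was 1.24. It was 1.49 without cells with 2 or more myeloid UMIs (mavrilimumab 1 only), 1.30 with clones by beta chain alone, 1.13 with clones of 2 or more, 1.38 after thinning, 1.00 without the 3 largest clones (0.999, chosen after seeing the data), and 1.17 to 1.23 leaving out a library. In regulatory T cells 2 members (Hip1 and Rgs16) were 2-fold higher without cells with 2 or more myeloid UMIs, and in CD4 T cells Entpd1 (2.31) in place of Rgs16 (1.38).

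The cause was not tested for the changes of sign. Leaving out a library, the log2 fold change between treatments in CD8 T cells ran from -1.01 (without mavrilimumab 1) to 0.88 for Nrp1, with -0.0301 without vehicle IgG 2, and from -0.748 (without mavrilimumab 1) to 9.81 for Rgs16, with -0.477 without vehicle IgG 1. In CD4 T cells it ran from -0.174 (without mavrilimumab 1) to 1.60 for Nrp1, from -7.55 (without mavrilimumab 1) to 1.47 for Rgs16, and from -1.01 to 0.578 (without vehicle IgG 2) for Hip1, with 0.245 without mavrilimumab 2. In microglia it ran from -0.331 (without vehicle IgG 2) to 1.73 for Nrp1, from -1.95 to 1.66 (without vehicle IgG 2) for Hip1, from -0.781 to 1.77 (without vehicle IgG 1) for Entpd1, with 0.0894 without mavrilimumab 2 and 0.0444 with cells of 1 gate, and from -1.80 to 6.00 (without vehicle IgG 2) for Rgs16, with 0.175 without mavrilimumab 2. For CD8 against regulatory T cells Lilrb4a ran from -0.145 (without vehicle IgG 2) to 0.642, with -0.447 without cells with 2 or more myeloid UMIs and -0.118 without the library term. For CD8 T cells against microglia Rgs16 ran from -0.413 to 0.313 (without vehicle IgG 2).

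Libraries of different treatments share only a replicate number. Same-numbered libraries deviated together (correlations 0.44, 0.31 and 0.31 in CD8 T cells, CD4 T cells and microglia), but with only 2 pairs this is a hint. With the replicate number as a block 0 members were called, with 0, 22 and 0 genes, and the signs changed for Nrp1 in CD8 T cells (-0.134), Rgs16 in CD4 T cells (-0.295), and Entpd1 (0.433) and Rgs16 (1.24) in microglia.

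Genes called differed by more than 1.5 times from the main count elsewhere as well. Between treatments 336 were called in CD4 T cells without the filter. In CD8 T cells the filter on 2 or more myeloid UMIs left 0 cells of vehicle IgG 1, so that fit had 3 sums and 1 control library. In regulatory T cells, with 1 control library, more genes passed with RLE normalization, with DESeq2 and without the filter than in the fit reported. Against CD4 T cells (189) the genes called were 708 with DESeq2, 375 without the filter, 4 without the library term and 1 to 367 leaving out a library. They were 32 without cells with 2 or more myeloid UMIs, a filter that left 10 of the 15 sums of the class fits. Against regulatory T cells (509) they were 1234 with DESeq2, 23 without the library term and 1 to 988 leaving out a library. The myeloid filter there left regulatory T cells of mavrilimumab 1 alone. Against microglia (7581) they were 4455 without cells with 2 or more myeloid UMIs, 4396 without the library term and 4671 to 8409 leaving out a library. Not run were the filter on 2 or more myeloid UMIs for CD4 and regulatory T cells between treatments, and leaving out a library or a block for regulatory T cells, for want of cells or libraries.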
